A study of Mus musculus with 48 samples.

Results

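Of 54489 open chromatin regions up to 10000 bp wide in thymic invariant natural killer T (iNKT) cells, 399 were open mainly in the iNKT1 sublineage. The regions were chosen from ATAC-seq, in which a transposase cuts accessible DNA and the fragments are sequenced and counted per region. A region was taken when its iNKT1 mean was at least 10 CPM (counts-per-million, scaled by the library total) and at least 4 times both the iNKT2 mean and the iNKT17 mean. The table held 54524 regions in all, and none of its regions over 10000 bp met the fold and level limits. The same rule turned to the other sublineages gave 792 regions for iNKT2 and 833 for iNKT17. All cells came from FVB/N mice. iNKT1, iNKT2 and iNKT17 cells were sorted from thymus, with 2 ATAC libraries and 2 RNA libraries for each. Conventional CD4 and CD8 T cells of FVB/N donors were read as RNA before transplantation (day 0) and 7 days after transplantation into fully mismatched BALB/c hosts without added iNKT cells, with 3 libraries per cell type and time. Nothing in the labels says that the libraries of a group came from separate animals, so the p-values below measure the spread between libraries, which may be technical.

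iNKT cells carry a nearly invariant T cell receptor that reads glycolipids on CD1d. iNKT1 cells depend on the T-box factor T-bet, make interferon-gamma and carry many receptors and granule proteins of natural killer (NK) cells, while iNKT2 cells are known for interleukin-4 and iNKT17 cells for RORγt and interleukin-17. Regions open in a single sublineage are often distal elements such as enhancers, whereas chromatin at transcription starts is commonly open in all related cell types.

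Members overlapped the 250 bases before the start of 19 protein-coding genes for which a promoter sequence was at hand. The overlap ran from 39 bases (Klrc1) to all 250, and strings were searched in the whole window. The windows are printed for 6 effector genes of the type 1 and cytotoxic lists whose start lay in or beside a member. Here the chosen region and the gene it belongs to can be read together. The window of Cxcr3, also a type 1 gene with a member at its start, is not printed and holds none of the 4 strings marked below. The sequences are from RefSeq, build GRCm38.p6, which is a C57BL/6J genome, so FVB/N bases may differ. Each runs 5′ to 3′ on the strand of the gene and ends at the base before the start. Capitals mark matches, on either strand, to 4 strings: the T-box core AGGTGT, the RUNX string TGTGGTT, the AP-1 string TGANTCA and the STAT string TTCNNNGAA.
Nkg7, chr7:43436888-43437137, + strand: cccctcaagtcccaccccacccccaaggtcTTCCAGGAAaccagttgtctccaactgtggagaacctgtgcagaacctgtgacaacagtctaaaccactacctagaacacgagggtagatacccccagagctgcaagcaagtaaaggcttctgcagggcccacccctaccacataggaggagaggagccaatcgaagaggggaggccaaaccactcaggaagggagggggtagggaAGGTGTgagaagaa
Prf1, chr10:61297586-61297835, + strand: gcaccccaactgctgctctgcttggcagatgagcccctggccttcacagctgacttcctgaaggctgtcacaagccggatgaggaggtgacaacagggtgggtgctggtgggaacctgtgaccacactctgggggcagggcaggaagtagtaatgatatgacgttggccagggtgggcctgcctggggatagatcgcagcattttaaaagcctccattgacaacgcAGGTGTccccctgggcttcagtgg
Gzmb, chr14:56262335-56262584, - strand: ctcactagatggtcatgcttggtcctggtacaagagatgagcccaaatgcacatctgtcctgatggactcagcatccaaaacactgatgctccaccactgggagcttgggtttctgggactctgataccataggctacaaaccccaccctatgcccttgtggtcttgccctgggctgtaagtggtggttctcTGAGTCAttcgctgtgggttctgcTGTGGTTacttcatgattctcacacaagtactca
Xcl1, chr1:164935523-164935772, - strand: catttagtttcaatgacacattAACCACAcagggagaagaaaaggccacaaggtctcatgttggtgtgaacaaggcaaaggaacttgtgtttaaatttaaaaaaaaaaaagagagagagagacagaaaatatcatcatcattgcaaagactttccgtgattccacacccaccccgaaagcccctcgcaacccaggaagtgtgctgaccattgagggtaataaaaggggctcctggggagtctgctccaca
Ifng, chr10:118440796-118441045, + strand: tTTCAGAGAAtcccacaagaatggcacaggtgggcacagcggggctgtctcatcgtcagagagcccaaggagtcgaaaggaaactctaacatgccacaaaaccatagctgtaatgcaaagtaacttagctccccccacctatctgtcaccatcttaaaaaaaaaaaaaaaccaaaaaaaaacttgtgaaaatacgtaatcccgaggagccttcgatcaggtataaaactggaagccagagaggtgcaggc
Il12rb2, chr6:67376189-67376438, - strand: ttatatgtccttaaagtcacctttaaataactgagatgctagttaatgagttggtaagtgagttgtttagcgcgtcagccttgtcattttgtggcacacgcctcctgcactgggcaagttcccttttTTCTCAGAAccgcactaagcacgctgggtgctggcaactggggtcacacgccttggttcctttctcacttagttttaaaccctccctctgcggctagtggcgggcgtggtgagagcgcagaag

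The T-box core lay 14 bases before the start of Nkg7 and 24 bases before that of Prf1, counted from the first base of the match. It was in 5 of the 19 windows (Kcnj8, Mcoln2, Nkg7, Prf1 and Samd3), or 26.3%, against 11.03% of 21263 windows of protein-coding genes and 8.64% of the 9549 windows touched by any region with an iNKT1 mean of at least 10 CPM. The Kcnj8 match began 191 bases before the start, outside the 88 bases of its window that the member covered. The longer T-box string AGGTGTGA, which contains the core, was in the Nkg7 and Samd3 windows, against 0.997% of all windows. The AP-1 string was in 4 windows (Cd244a, Fgl2, Gzmb and Tmem37), or 21.1%, against 6.13% of all. The STAT string was also in 4 (Fgl2, Ifng, Il12rb2 and Nkg7), against 6.58% of all. RUNX was in the Gzmb and Xcl1 windows, 10.5% against 3.82%. The NFAT string TGGAAA was in 1 window, that of Klrc1, or 5.26% against 16.98% of all. In all, 16 strings were searched on both strands, the T-box pair overlapping. The NF-kB string was in 1 window, that of Neurl3 (0.372% of all), the KLF string GGGTGTGG in that of Xcl1 (3.32%) and the TCF/LEF string CTTTGA in that of Itga1 (12.7%). The GATA string AGATAA, the E2A string CAGCTG and the ROR string AGGTCA were in 2 windows each (8.81%, 12.1% and 12.8% of all), and the ZEB string CACCTG in 4 (16.9%). The ETS string ACAGGAAG, the IRF string and the CTCF string CCCTCTNG were in 0 of the 19 windows, against 2.62%, 2.96% and 5.96% of all. With 19 windows each match weighs heavily, and a match describes letters, not a bound factor.

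The median iNKT1 mean of the members was 21.7 CPM, with a range from 10.1 to 245 CPM, against medians of 3.50 CPM in iNKT2 and 2.28 CPM in iNKT17. Both other means were under 2 CPM in 52 members, and the highest were 46.97 CPM in iNKT2 and 48.0 CPM in iNKT17. These levels chose the regions and are given as a description only. In all 399 members each iNKT1 library was above every iNKT2 and iNKT17 library, and in 240 the lower iNKT1 library was at least 4 times the highest of the other 4. The rule used these same libraries and favours such separation, which was not counted for other regions. The ratio of the iNKT1 mean to the larger of the other means had a median of 5.63 and reached 29.6. It was at least 6 in 174 members, at least 10 in 46 and at least 20 in 5. Members took 1.099% and 1.17% of all counts of the iNKT1 libraries, 0.201% and 0.161% of those of iNKT2, and 0.143% and 0.131% of those of iNKT17. No member was without counts in any library, and the median member held 37 to 915 counts per library over totals of 13299586 to 42964216.

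At the edge of the rule, the 2 members just inside the 4-fold limit lay in the bodies of Tbc1d1 (20.7, 3.78 and 5.16 CPM in iNKT1, iNKT2 and iNKT17) and Slc44a5 (14.7, 3.66 and 1.15 CPM). The 2 regions just outside it were nearest to Ift57 (36.8, 7.08 and 9.20 CPM) and Smndc1 (14.5, 3.63 and 2.57 CPM). Replicate 1 of each sublineage alone would have chosen 364 regions and replicate 2 alone 475. The 291 chosen by both are 79.9% of the first set and 61.3% of the second.

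Type 1 genes. Tbx21, which encodes T-bet, held 3 members, all inside the gene (chromosome 11, within 97103078-97113136). The strongest, at 97112500-97113136, read 110 and 85.6 CPM in iNKT1, 21.5 and 20.4 CPM in iNKT2, and 3.76 and 1.06 CPM in iNKT17. At this region both iNKT2 libraries stood between those of iNKT1 and iNKT17. Ifng, the gene of interferon-gamma, had 4 members. The region over its start (chromosome 10, 118440595-118441249) read 49.3 and 45.7 CPM in iNKT1, 10.9 and 5.49 CPM in iNKT2, and 1.47 and 1.03 CPM in iNKT17. The others lay 5169, 22854 and 83645 bp from the gene, at iNKT1 means of 11.4, 25.3 and 11.02 CPM.

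Xcl1, a chemokine that draws cross-presenting dendritic cells, had 3 members across 41126 bp. Its start region read 50.5 and 47.9 CPM in iNKT1, 4.89 and 3.83 CPM in iNKT2, and 1.85 and 0.804 CPM in iNKT17. A region 30345 bp from the gene was stronger, at 78.7 and 88.9 CPM in iNKT1. Stat4 transmits the interleukin-12 signal, and Il12rb2 is a chain of the interleukin-12 receptor. The member within Stat4 (chromosome 1, 52034672-52035716) had the highest ratio after a 0.5 CPM pseudocount. It read 53.6 and 46.1 CPM in iNKT1 and 1.12 to 1.78 CPM in the other 4 libraries. The start region of Il12rb2 read 45.8 and 62.5 CPM in iNKT1, 5.47 and 6.69 CPM in iNKT2, and 2.45 and 1.55 CPM in iNKT17. Ccl5 had a member 4494 bp from the gene at 40.6 and 34.0 CPM in iNKT1, 4.66 and 5.71 CPM in iNKT2, and 1.03 and 0.431 CPM in iNKT17. Cxcr3, Ccl3, Hopx and Bhlhe40 completed the list with strongest members of 23.5 to 28.9 CPM in iNKT1. In all, 10 of the 24 genes of the type 1 list, or 41.7%, had a member, against 2.14% of the 15307 genes to which any region was assigned. The other lists had members at 8 of 22 NK genes (36.4%), 5 of 15 naive and quiescence genes (33.3%), 4 of 18 chemokine receptor and homing genes (22.2%), 3 of 16 type 2 and 3 of 16 cytotoxic genes (18.8% each), 2 of 20 type 17 genes, 2 of 22 STAT and cytokine signalling genes (9.09%) and none of 16 iNKT identity or 9 thymocyte genes. The list of B, myeloid, erythroid and stromal cells had a member at 1 of 14 genes, Itgam (7.14%). Btg1 counts among the naive and quiescence genes through a member 265452 bp away. The lists were chosen with earlier results known, so these shares are a description.

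Cytotoxic and NK genes. Nkg7, a granule membrane protein, carried a member over its start (64.7 and 73.1 CPM in iNKT1, 6.96 and 2.71 CPM in iNKT2, 3.05 and 1.78 CPM in iNKT17) and a second 236 bp past the gene. Gzmb, the gene of granzyme B, carried a start region at 50.8 and 38.3 CPM in iNKT1. At this region iNKT17 stood above iNKT2, with 7.84 and 12.3 CPM against 3.91 and 2.11 CPM. Prf1, which encodes the pore former perforin, had a start region at 21.4 and 22.5 CPM in iNKT1 and 1.28 to 4.89 CPM elsewhere.

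Of the 22 NK receptor and adaptor genes, 8 had 11 members among them. Slamf7, a SLAM family receptor, had 3, the strongest at 57.4 and 67.6 CPM in iNKT1, 7.71 and 7.97 CPM in iNKT2, and 5.33 and 5.95 CPM in iNKT17. Cd244a, another SLAM receptor, had a start region at 16.5 and 15.6 CPM in iNKT1 against 0.632 to 6.27 CPM elsewhere. Fcer1g, a signalling adaptor of Fc and NK receptors, had a member in the gene at 23.0 and 20.5 CPM against 3.22 to 4.57 CPM. Klrk1 (NKG2D), Klrc1, Klrb1c, Klri2 and Klra9 are lectin-like receptors of the NK gene complex on chromosome 6, and their strongest members had iNKT1 means of 10.1 to 59.3 CPM. This complex differs between mouse strains and holds near-identical genes, so the assignment to single Klra and Klr genes is uncertain.

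**Figure D1:**
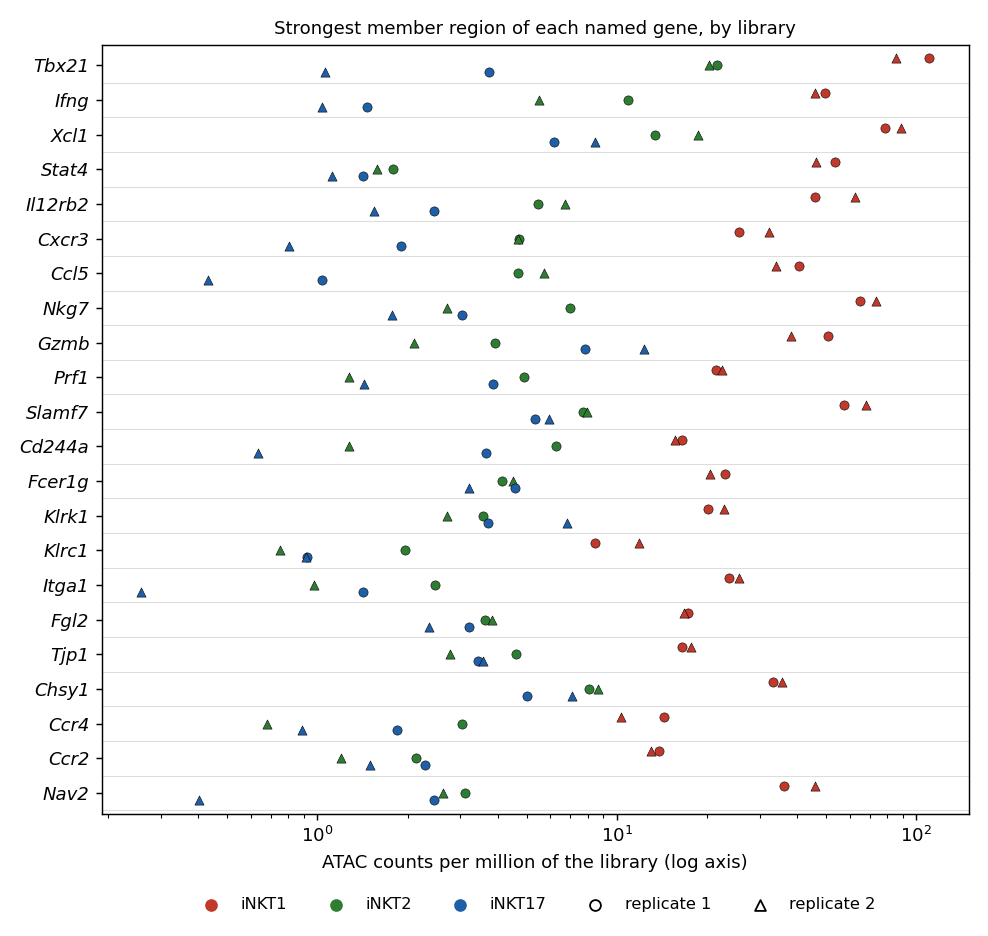
ATAC level of the strongest member region of 22 genes in each of the 6 libraries (x axis, CPM, log scale; colour gives the sublineage and the marker shape the replicate). Both iNKT1 libraries stand to the right of the other 4 at every gene, while the order of iNKT2 and iNKT17 varies.

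The strongest members were mostly not at effector genes. The highest, inside Lmbrd1 (a lysosomal cobalamin transport gene; chromosome 1, 24684038-24684406), read 238 and 251 CPM in iNKT1 but also 30.2 to 63.7 CPM elsewhere. Pde2a, a cyclic nucleotide phosphodiesterase, followed at 171 and 155 CPM in iNKT1, 35.3 and 40.0 CPM in iNKT2, and 10.3 and 11.8 CPM in iNKT17. A region 182370 bp from Map3k1, a kinase of stress signalling, read 124 and 141 CPM in iNKT1. Plekha2, Tbx21, Cemip2, Plcxd2, Abcb1b, the distal Xcl1 region, Nmnat2, Hip1 and Zmiz1 completed the top 12, down to 77.0 CPM. After 0.5 CPM was added to each mean, the 6 largest ratios belonged to Stat4, Serpinb1b, Cdc20b, Btg1, Cemip2 and Lrrc8c. The region assigned to Btg1 lay 265452 bp from that gene, so its assignment is uncertain. The region near Serpinb1b (a serpin protease inhibitor gene) read 52.7 and 57.1 CPM in iNKT1 and 1.14 to 2.48 CPM elsewhere.

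Some members lay close together, and the same count was not made for other sets of regions. Members were assigned to 328 genes, of which 55 held 2 or more and together 126 members. Joining members less than 50000 bp apart gave 50 groups with 118 members, or 29.6% of all, and 12 groups held 3 or more. The 2 largest, with 5 members each, spanned Adamts14, Prf1 and Pald1 on chromosome 10 (74000 bp) and Cd244a, Ly9 and Slamf7 on chromosome 1 (99998 bp). On chromosome 13, 4 members in 47935 bp were assigned to Cdc20b, with the granzyme genes Gzma and Gzmk within 50000 bp. Chsy1, a chondroitin sulfate synthase, had 4 members, and Tbx21, Ifng, Xcl1, Slamf7, Akap13, Dusp6, Lrrc3b, Prex1, Ss18 and Tbc1d1 were among genes with 3 or more. The 3 members nearest to Lrrc3b lay 259548 to 330504 bp from it, so that name marks a place on chromosome 14 more than a gene.

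The rule used the iNKT2 and iNKT17 levels, so their order among the members is a description only. The iNKT2 mean was above the iNKT17 mean in 305 members and below it in 94. Both iNKT2 libraries exceeded both iNKT17 libraries in 155 members (38.8%) and the reverse held in 29 (7.27%). Among all regions with an iNKT1 mean of at least 10 CPM, these shares were 18.5% and 26.9%. The count of 305 became 307 with TMM scaling and 312 with DESeq2 size factors, and 236 (against 163 below) without iNKT2 replicate 1, whose median member level was 4.26 CPM against 2.78 CPM in replicate 2. Ccl5 had a wide gap, with iNKT2 and iNKT17 means of 5.19 and 0.730 CPM, as did Tbx21 (21.0 and 2.41 CPM) and Ifng (8.18 and 1.25 CPM). Gzmb (3.01 and 10.1 CPM) and Hip1 (6.21 and 16.6 CPM) were on the other side.

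**Figure D2:**
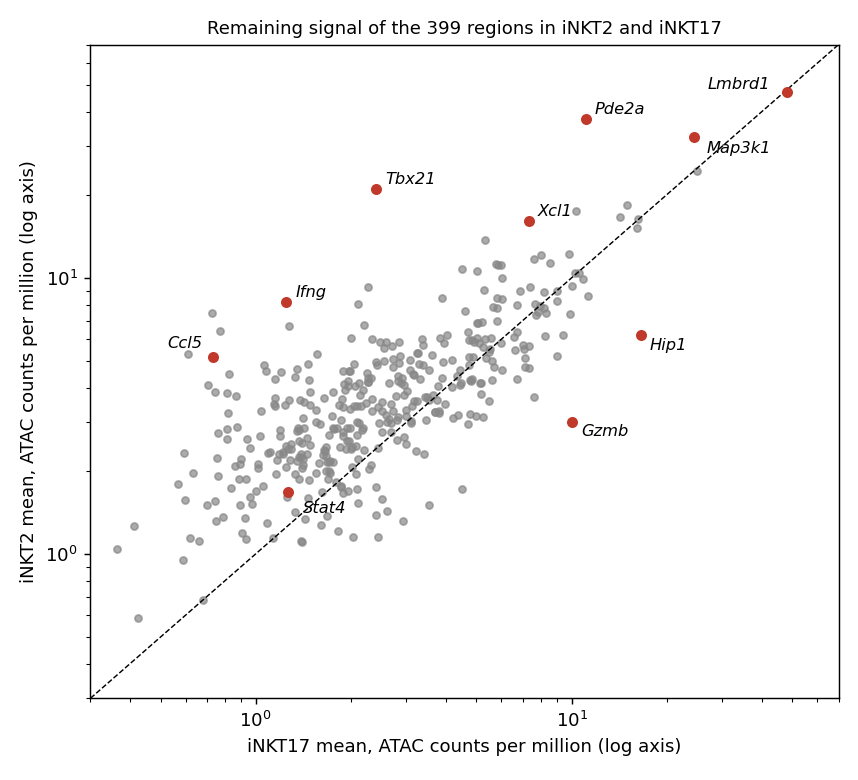
Mean ATAC level of the 399 members in iNKT17 (x axis) and iNKT2 (y axis), both in CPM on log axes, with the line of equal values and 10 regions named by gene. Most points, 305, lie above the line, with Tbx21, Ifng and Ccl5 far above it and Gzmb and Hip1 below.

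Members lay away from transcription starts. Of the 382 on chromosomes with known starts, 23 (6.02%, exact 95% interval 3.85 to 8.90) were within 1000 bp of a start, 180 (47.1%) were elsewhere in a gene body and 179 (46.9%) outside genes. Regions with an iNKT1 mean of at least 10 CPM had 46.2% near a start, and all regions 23.2%. The iNKT2 and iNKT17 sets had 2.35% and 3.54%. Intervals cover counting error only, and neighbouring regions are not independent. Members outside genes had a median distance of 22907 bp to the nearest gene, and 46 were over 50000 bp away. Start positions were known for 79.9% of protein-coding genes, which lowers the near-start share in every set. Members were wider (median 649 bp) than all regions (485 bp) but not than other strong iNKT1 regions (742 bp).

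**Figure D3:**
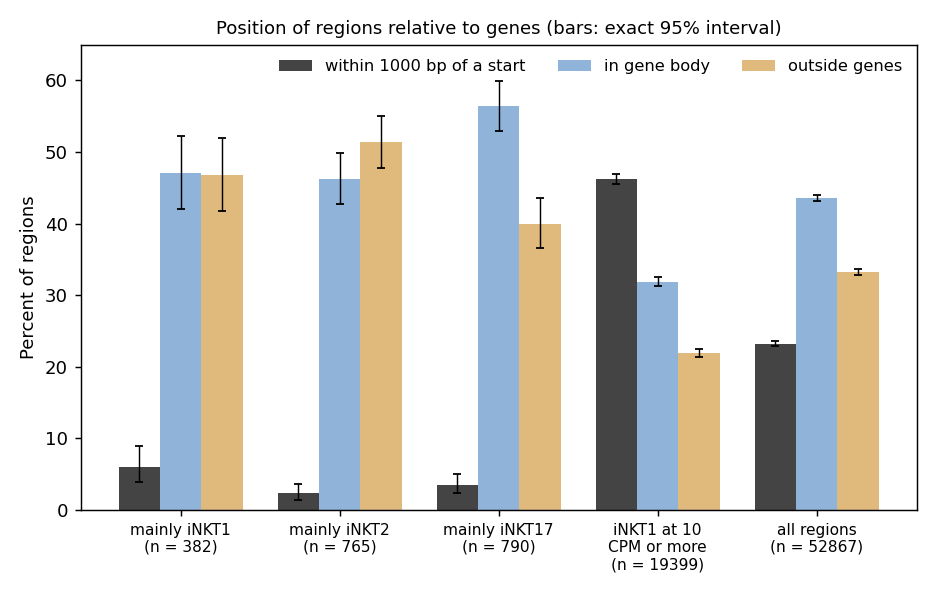
Percent of regions (y axis) within 1000 bp of a known start, elsewhere in gene bodies and outside genes, for the 3 sets of sublineage regions, for regions with an iNKT1 mean of at least 10 CPM and for all regions, with exact 95% intervals as error bars. The near-start bar is 6.02% for the iNKT1 set and 46.2% for strong iNKT1 regions.

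RNA of the nearby genes was read in separate libraries that the rule did not use. Before any result, the labels were checked by summed marker RNA, in TMM-scaled CPM. The type 1 list summed to 7321 to 7908 in the iNKT1 libraries, 2615 to 2903 in iNKT2 and 4185 to 4317 in iNKT17. The type 17 list summed to 8698 to 10005 in iNKT17, 1370 to 1578 in iNKT2 and 229 to 284 in iNKT1. The type 2 list summed to 3112 to 3393 in iNKT2, 2702 to 2757 in iNKT17 and 798 to 943 in iNKT1. The type 2 list thus set iNKT1 apart more than it told iNKT2 from iNKT17. The 14 genes of B, myeloid, erythroid and stromal cells summed to 6.66 to 19.2 in iNKT1, 1.12 to 13.7 in iNKT2 and 30.3 to 32.5 in iNKT17. Of these, Col1a1 was at 19.1 CPM in iNKT1 replicate 2 and 14.8 CPM in iNKT17 replicate 1. Epcam was at 17.7 and 30.3 CPM in iNKT17. Genes at 0 in every library included Alas2, Csf1r, Hba-a1, Krt5, Ms4a1 and Pdgfra. The 9 thymocyte genes summed to 101 to 137, 175 to 178 and 220 to 284, with Dntt, Ptcra and Rag2 at 0. Their part in the results was not tested. iNKT RNA totals were 26811373 to 33688697 counts.

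A larger share of genes with members than of all genes was called higher in iNKT1. Of the 328 genes, 323 had an RNA gene ID and 258 passed the low-count filter. Of these 258, 28 (10.9%) were higher in iNKT1 than in iNKT2 by edgeR's quasi-likelihood test at an adjusted p under 0.05, against 0.752% of all 12372 genes tested. Lower were 3, or 1.16%, against 0.533% of all. Against iNKT17, 36 (14.0%) were higher, against 1.01% of all, and 4 (1.55%) lower, against 0.986%. The median log2 fold change of the 258 was 1.09 against iNKT2 and 1.25 against iNKT17, where all genes tested had -0.09 and 0.03. These contrasts share the iNKT1 libraries. The filter keeps a gene seen in a single sublineage, and 29 of the 258 were under 1 CPM in every iNKT2 and iNKT17 library, so counts among tested genes describe those genes only. Merely having a strong region did not go with such shares: of 9156 tested genes with any region at an iNKT1 mean of at least 10 CPM, 0.928% and 1.25% were called higher. In bulk RNA, fewer cells of a type and less RNA per cell cannot be told apart.

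The share was larger at genes with several members or with a member near a start. Of 212 tested genes with 1 member, 16 were called higher than in iNKT2 and 24 higher than in iNKT17. Of 46 genes with 2 or more, 12 were higher in each comparison and 0 lower by edgeR. At an unadjusted p under 0.05, 1 was lower against iNKT2 and 0 against iNKT17, and DESeq2 gave the same counts. Of 20 genes with a member near a start, 11 and 13 were higher. The differences between these classes were not tested. Genes assigned to iNKT2 regions gave 4 higher and 5 lower of 357 against iNKT2, and genes assigned to iNKT17 regions gave 4 higher and 31 lower of 431 against iNKT17.

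**Figure D4:**
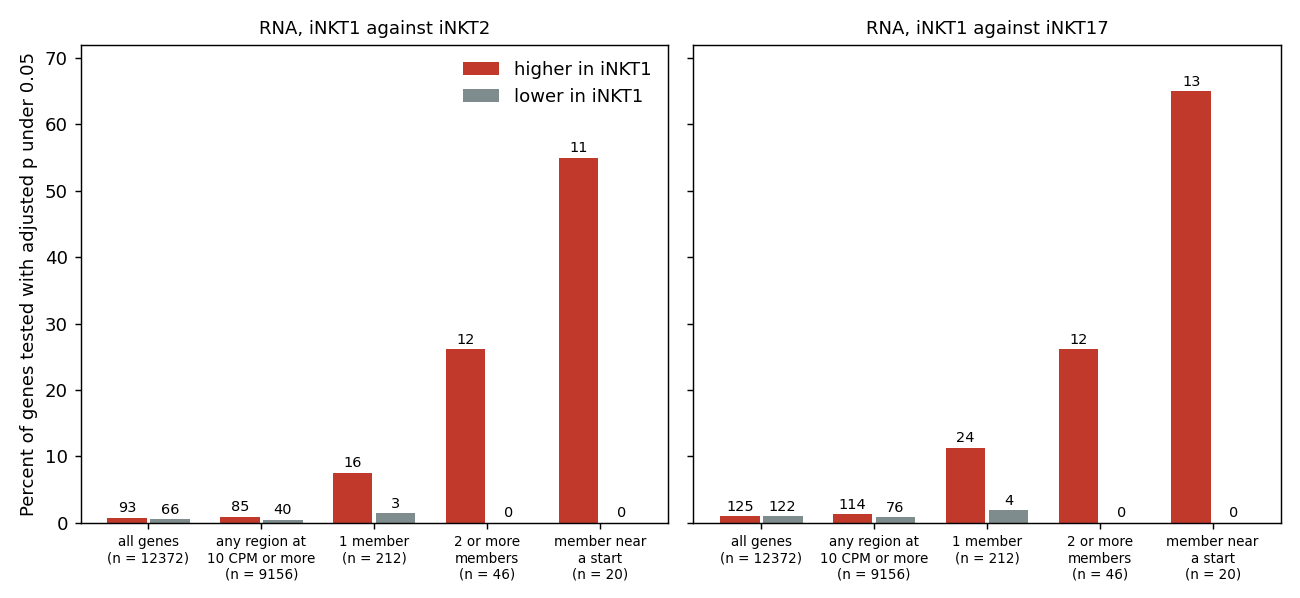
Percent of tested genes called higher (red) or lower (grey) in iNKT1 RNA, against iNKT2 (left) and iNKT17 (right), for all genes and for genes grouped by their regions; numbers over bars count genes. Genes with 2 or more members reach 12 of 46 called higher in both panels, and genes with a member near a start 11 and 13 of 20.

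In both comparisons 24 genes with members were higher in iNKT1, against 0.453% of all genes tested. They are 42.9% of the 56 such genes, although only 2.09% of tested genes had a member. Besides the effector genes below they were Dennd4a, Rgs1, Sidt1, Chsy1, Samd3, Bcl2, Cdh1, Prag1, Tnfaip3, Dusp1 and Cd7. The members assigned to Rgs1 and Tnfaip3 lay 106491 and 156373 bp from these genes, so those assignments are uncertain.

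Of the type 1 genes with members, Xcl1, Stat4, Il12rb2 and Ifng were higher in both comparisons. Xcl1 RNA was 225 and 330 CPM in iNKT1 and 0.0642 to 0.180 CPM in the other libraries. Its log2 fold change was 10.74 ± 0.73 (SE) against iNKT2 (edgeR adjusted p = 0.00013) and 11.86 ± 0.77 against iNKT17 (adjusted p = 5.26e-05). Stat4 was 103 and 212 CPM in iNKT1 and 0.0642 to 0.217 CPM elsewhere, with edgeR adjusted p = 0.00267 and 0.00128. Il12rb2 was 182 and 118 CPM in iNKT1 and at most 0.116 CPM elsewhere, with edgeR adjusted p = 0.00233 and 0.00143. Stat4 was called in neither comparison without iNKT1 replicate 2 (edgeR adjusted p = 0.410 and 0.256), and Il12rb2 in neither without iNKT1 replicate 1 (0.0584 and 0.0589). Ifng was 354 and 561 CPM in iNKT1, 4.73 and 25.8 CPM in iNKT2, and 0.128 and 0.309 CPM in iNKT17. Its log2 fold change was 4.9004 ± 0.85 against iNKT2 (edgeR adjusted p = 0.0396) and 11.03 ± 1.14 against iNKT17 (adjusted p = 0.00211), so its RNA and its start region shared the order iNKT1, iNKT2, iNKT17. Without iNKT17 replicate 1 or 2 neither Ifng call held (edgeR adjusted p = 0.377 and 0.417 against iNKT2, 0.156 and 0.280 against iNKT17).

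Tbx21 was 306 and 304 CPM in iNKT1, 0.304 and 19.7 CPM in iNKT2, and 0.0962 and 0.232 CPM in iNKT17, with no overlap between iNKT1 and the others, and missed the threshold in both comparisons (edgeR adjusted p = 0.501 and 0.105). Ccl5, Hopx and Bhlhe40 also missed it in both. Cxcr3, a receptor for interferon-induced chemokines, passed against iNKT17 (edgeR adjusted p = 0.00178) but not against iNKT2 (0.649), at 170 and 149 CPM in iNKT1, 46.8 and 35.95 CPM in iNKT2, and 0 and 0.155 CPM in iNKT17. Among 32 genes with members that had at least 50 CPM in both iNKT1 libraries and under 1 CPM in iNKT2 replicate 1, 14 had at least 4 CPM in iNKT2 replicate 2. The reverse held for 2 of 20 genes. These CPM limits were not part of the plan, and the count was not made over all tested genes. Why the iNKT2 libraries differ was not tested.

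Over the type 1 list, with or without members, 7 of 20 tested genes were higher and 0 lower than in iNKT2 by edgeR (median log2 fold change 4.92; 3 lower at an unadjusted p under 0.05, and 3 by DESeq2), and 7 were higher and 2 lower than in iNKT17 (3.71). Of its 9 tested genes with members, 4 and 5 were higher.

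Of the 3 cytotoxic genes with members, Gzmb and Nkg7 were higher in both comparisons. Gzmb RNA was 478 and 329 CPM in iNKT1 and 0.0321 to 0.348 CPM elsewhere, a log2 fold change of 11.14 ± 0.94 against iNKT2 and 11.08 ± 0.94 against iNKT17 (edgeR adjusted p = 0.000484 and 0.000254). The signal of its start region in iNKT17 had no match in RNA, which was 0.0321 and 0.348 CPM there. Nkg7 was 997 and 957 CPM in iNKT1, 0.811 and 4.12 CPM in iNKT2, and 0.321 and 0.580 CPM in iNKT17 (edgeR adjusted p = 0.00706 and 0.00245). Without iNKT17 replicate 1 or 2 neither Nkg7 call held (edgeR adjusted p = 0.222 and 0.233 against iNKT2, 0.162 and 0.275 against iNKT17). Prf1 was 95.7 and 60.1 CPM in iNKT1 and at most 0.0723 CPM elsewhere, and passed against iNKT17 (edgeR adjusted p = 0.0472) but not against iNKT2 (0.0774). Without iNKT1 replicate 1 or 2 the Prf1 call was lost (edgeR adjusted p = 0.424 and 0.271). Of 13 tested genes of the cytotoxic list, 3 were higher than in iNKT2 and 5 higher than in iNKT17 (medians 1.65 and 2.09). By edgeR 0 were lower in either, though against iNKT17 2 were lower at an unadjusted p under 0.05 and 2 by DESeq2.

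Of the 8 NK genes with members, 4 were higher in iNKT1 than in iNKT2 and 6 higher than in iNKT17 by edgeR. Slamf7 was 223 and 171 CPM in iNKT1 and at most 0.217 CPM elsewhere (log2 fold change 10.24 ± 0.90 against iNKT2, edgeR adjusted p = 0.000559; 11.37 ± 0.95 against iNKT17, adjusted p = 0.000254). Cd244a was 199 and 203 CPM against at most 0.180 CPM, and Fcer1g 187 and 237 CPM against at most 0.155 CPM, both passing in both comparisons. Klrc1 passed in both (edgeR adjusted p = 0.0308 and 0.0366) at 98.9 and 79.4 CPM in iNKT1, while Klrk1 and Klri2 passed against iNKT17 alone. Without iNKT1 replicate 1 or 2, Klrc1 passed in neither (edgeR adjusted p = 0.285 to 0.354), nor did Klri2 pass against iNKT17 (0.0873 and 0.531). Klrk1 did not pass against iNKT17 without any one of the iNKT1 and iNKT17 libraries (edgeR adjusted p = 0.165 to 0.614). Klra9 was 38.2 and 57.5 CPM in iNKT1 and at most 0.155 CPM elsewhere, and missed the threshold in both comparisons (edgeR adjusted p = 0.408 and 0.378). Klrb1c, an NK cell receptor, was 334 and 241 CPM in iNKT1, 0.372 and 8.63 CPM in iNKT2, and 504 and 460 CPM in iNKT17. Its member region was nonetheless low in iNKT17, at 5.55 and 2.82 CPM against 21.5 and 22.7 CPM in iNKT1. Over the NK list, 6 of 17 tested genes were higher than in iNKT2 and 9 higher than in iNKT17 (medians 7.21 and 10.98), with 0 lower by edgeR, at an unadjusted p under 0.05 or by DESeq2.

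Genes outside these lists included Fgl2, a fibrinogen-like immunoregulatory protein, at 626 and 716 CPM in iNKT1 against 0.257 to 0.734 CPM elsewhere (log2 fold change 10.01 ± 0.60 against iNKT2, edgeR adjusted p = 0.000101). Itga1, the alpha chain of a collagen-binding integrin, was 255 and 259 CPM against at most 0.193 CPM (10.99 ± 0.79, edgeR adjusted p = 0.000157). Tjp1, a tight junction scaffold also called ZO-1, was 124 and 145 CPM in iNKT1 and at most 0.108 CPM elsewhere, with members over its start and in its body (edgeR adjusted p = 0.00308 and 0.00159). Without iNKT1 replicate 2 neither Tjp1 call held (edgeR adjusted p = 0.0895 and 0.0516). Chsy1, with 4 members, was 383 and 457 CPM in iNKT1 against 25.9 to 52.4 CPM (3.55 ± 0.45 against iNKT2, edgeR adjusted p = 0.00398).

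**Figure D5:**
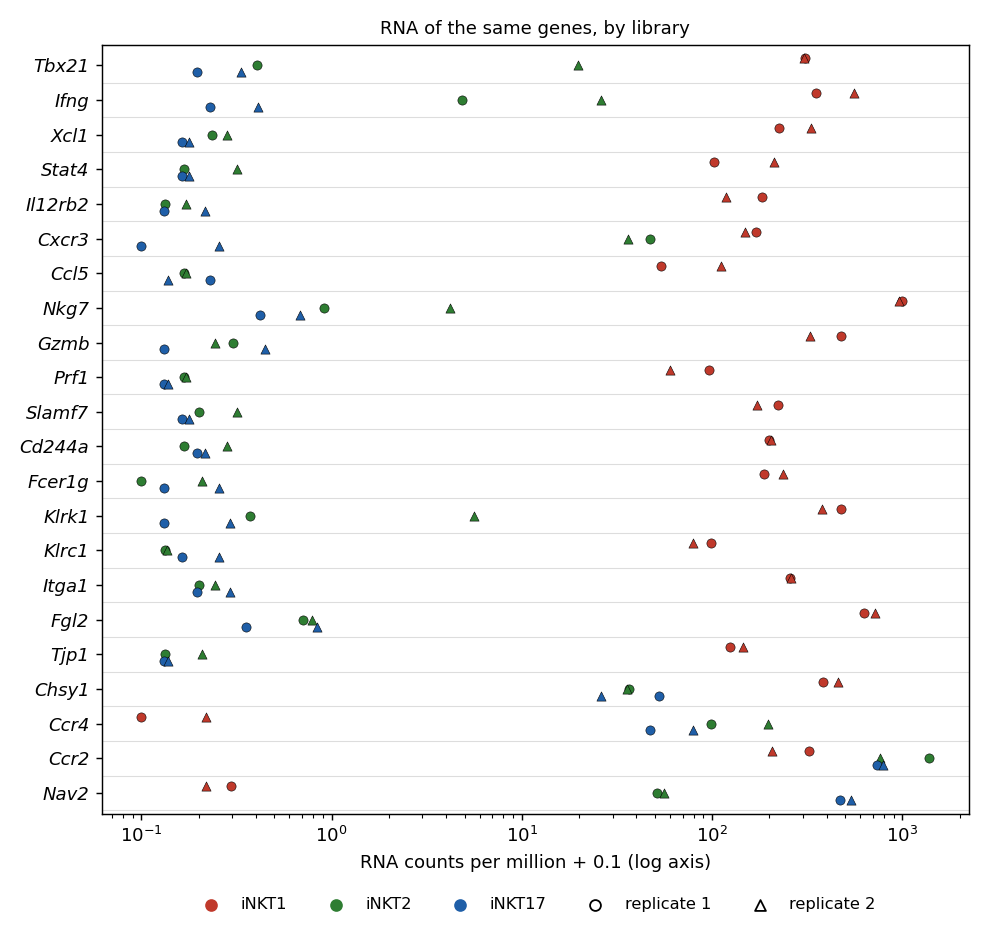
RNA of the 22 genes of the ATAC plot in each library (x axis, TMM-scaled CPM plus 0.1, log scale; colours and shapes as there). Xcl1, Stat4, Il12rb2, Gzmb and Slamf7 sit at the right in iNKT1 alone, Tbx21 and Klrk1 show a raised iNKT2 replicate 2, and Ccr4, Ccr2 and Nav2 run the other way.

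A member did not always go with higher RNA. In 3 of the 258 tested genes, or 1.16%, RNA was lower in iNKT1 than in both other sublineages, against 0.428% of all genes tested. Ccr4, a chemokine receptor of type 2 T cells, had a member in its body (14.4 and 10.4 CPM of ATAC in iNKT1, 0.677 to 3.05 CPM elsewhere). Its RNA was 0 and 0.120 CPM in iNKT1, 98.7 and 196 CPM in iNKT2, and 47.0 and 79.0 CPM in iNKT17 (log2 fold changes -11.14 ± 1.30 and -9.91 ± 1.25, edgeR adjusted p = 0.00267 and 0.00249). Nav2, a neuron navigator gene, had a strong member in its body, at 36.2 and 45.9 CPM in iNKT1 and 0.402 to 3.11 CPM elsewhere. Its RNA was 0.196 and 0.120 CPM in iNKT1, 51.0 and 55.7 CPM in iNKT2, and 471 and 534 CPM in iNKT17 (log2 fold changes -8.37 ± 0.48 and -11.61 ± 0.53). Ccr2, an inflammatory chemokine receptor, had a member 5507 bp from the gene. Its RNA was 321 and 207 CPM in iNKT1, 1384 and 767 CPM in iNKT2, and 735 and 793 CPM in iNKT17 (edgeR adjusted p = 0.0144 and 0.0438). The Ccr2 call against iNKT17 was lost without iNKT1 replicate 2, iNKT17 replicate 1 or iNKT17 replicate 2 (edgeR adjusted p = 0.121, 0.0538 and 0.0965).

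Il23r, chosen for mention after its values were seen, was the fourth gene lower than in iNKT17, at 0.163 and 0.0598 CPM in iNKT1 and 631 and 536 CPM in iNKT17. Its member lies between the genes Il23r and Il12rb2, 22675 bp from Il23r, and the nearest known start is that of Il12rb2, so the assignment is uncertain. Some strong members had no such RNA difference. Plekha2 RNA was 147 and 128 CPM in iNKT1, 170 and 133 CPM in iNKT2, and 122 and 126 CPM in iNKT17. The iNKT1 and iNKT2 libraries overlap, and both iNKT1 libraries were slightly above those of iNKT17 (log2 fold change 0.154 ± 0.368). Serpinb1b had no RNA count in any of the 6 libraries, and Cdc20b had 1 count in all. The strongest Cdc20b member lies inside that gene, but its nearest known start is that of Gzma, 13024 bp away. Its assignment is therefore uncertain too. Gzma RNA was 439 and 366 CPM in iNKT1, 0.338 and 6.17 CPM in iNKT2, and 0.0641 and 0.309 CPM in iNKT17. Of the 65 genes with an ID that failed the filter, 43 had no count in any iNKT library.

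The same genes were read in conventional donor T cells, where day 7 in the mismatched host was set against day 0. In CD8 cells 134 of 286 tested genes with members (46.9%) were higher on day 7 by edgeR, against 30.9% of all genes, and 83 (29.0%) lower, against 29.8%. In CD4 cells 108 of 284 (38.0%) were higher, against 17.4%, and 53 (18.7%) lower, against 18.2%. Tested genes with any region at an iNKT1 mean of at least 10 CPM had 35.5% higher in CD8 and 20.5% in CD4. The titles of each donor T cell group carry 2 different codes and do not say what they stand for. The table columns carry no such code, so it could not be fitted.

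Gzmb rose from 3.37 ± 1.06 to 2830.4 ± 660 CPM (SD, n = 3) in CD8 and from 2.55 ± 1.47 to 629 ± 87.5 CPM in CD4. Tbx21 rose from 38.0 ± 11.97 to 525 ± 26.2 CPM in CD8 and from 29.6 ± 2.21 to 416 ± 44.2 CPM in CD4. Il12rb2 rose from 2.16 ± 0.449 to 113 ± 14.7 CPM in CD8 and from 5.35 ± 0.804 to 150 ± 22.0 CPM in CD4. Each of these changes passed the edgeR test. Of the 10 type 1 genes with members, 9 were higher on day 7 in CD8 and 9 in CD4, where Xcl1 was lower. All 3 cytotoxic genes with members were higher in each. All 5 genes of the naive and quiescence list with members (S1pr1, Foxo1, Satb1, Bcl2 and Btg1) were lower in CD8 and 4 of the 5 in CD4, though Bcl2 RNA was higher in iNKT1. The member assigned to Btg1 lay 265452 bp from it. Ccr2, lower in iNKT1, rose in both, from 7.19 ± 3.54 to 396 ± 28.6 CPM in CD8 and from 35.6 ± 6.49 to 435 ± 40.8 CPM in CD4.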

How the data were processed

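ATAC-seq and RNA-seq were read from tables of raw counts deposited by the authors, with whole numbers per region or gene. The submitters' processing notes name STAR 2.5.4, Bowtie2, MACS2, bedtools 2.27.1, HOMER 4.9.1, kallisto and DESeq2 1.22.2 and the builds mm10 and GRCm38, with no roles. Strand use in counting, and whether peaks were called per sample, are not given in the sources used here. Per the labels' protocols, iNKT RNA used a stranded mRNA kit and donor T cells SMARTer v4 cDNA. The single-cell and CD4-sorted iNKT1 libraries were not used here, and 0 table columns were left unmatched.

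The members, gene lists and names were chosen with earlier results of these data known. ATAC CPM is the count over the column total, which includes regions over 10000 bp (1.52% to 7.09% of counts). Coordinates are those of the table's row names. Each region took the protein-coding RefSeq gene (GRCm38.p6) it overlapped or the nearest gene body, in place of the planned nearest start, because starts were known for 79.9% of these genes and none of the 17 members on chromosome 18. Of all regions, 22.6% lay within 1000 bp of a known start, against 3.89% after the starts were moved by 50000 bp. Member sequences were not read, since no genome was given. Of 328 genes, 323 matched an RNA gene ID, 4 of them through an older symbol.

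The RNA tests used edgeR 4.0.16 under R 4.3.3: filterByExpr, TMM, robust quasi-likelihood fit with 1 term per group over 6 iNKT, 15 CD8 or 15 CD4 libraries, Benjamini-Hochberg adjustment over all genes tested, calls at an adjusted p under 0.05, and SE from the F statistic. The fits were also run on simulated counts with a spread far below that of iNKT RNA. That run does not show how the tests behave at the real spread. The common biological coefficient of variation of iNKT RNA was 1.30. Named regions were the 12 strongest members, the 6 with the largest ratio, the strongest of each gene in 5 lists, the 10 genes with most members and the 2 regions on each side of the 4-fold limit. Named RNA genes were the 10 with the largest smaller fold change among genes higher in both comparisons, and those lower in both. Predicted genes, pseudogenes, receptor segments, Xist and Y-linked genes were left out. DESeq2 1.42.0, other scalings, filters, assignments and left-out libraries were tried as alternatives.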

Additional observations from a re-analysis of the deposited data

Results flagged for a closer look

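Cd244a, whose start lies in a member region, moved in opposite directions in conventional T cells. Its log2 fold change from day 0 to day 7 was 0.919 ± 0.246 (SE) in CD8 and -2.085 ± 0.206 in CD4 cells, and in each cell type the 3 day 7 libraries were all on their side of the 3 day 0 libraries. Mean levels went from 24.6 to 46.5 CPM in CD8 and from 25.0 to 5.90 CPM in CD4. The difference between the cell types was not tested.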

How the results depend on the processing

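The number of members depended on the limits: 694 at 3-fold, 174 at 6-fold and 226 at a minimum of 20 CPM, against 399, with 355 to 451 when any library was left out and other scalings, totals and widths within 1.5 times. The near-start share was 10.2% with a 2500 bp window. For genes higher in iNKT1 at members, DESeq2 called 83 (against iNKT2) and 89 (against iNKT17), and edgeR with no low-count filter 62 and 67, in place of 28 and 36; over all genes, in both directions, DESeq2 called 1175 and 1838 and no filter 445 and 559, in place of 159 and 247. Fitting only the compared groups gave 43 against iNKT2. Counting only genes with 2 or more members left 12 and 12, and in CD8 and CD4 28 and 26, and members within 20000 bp of the own start left 18 against iNKT2. All genes within 50000 bp, an alternative chosen after seeing the data, gave 213 in CD8 and 164 in CD4.

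Leaving out a library gave 21 to 52 genes at members against iNKT2 and 27 to 69 against iNKT17, and 153 to 425 and 195 to 1040 over all genes; it gave 128 to 137 in CD8 and 100 to 113 in CD4. Past 1.5 times were 52 and 52 at members without iNKT17 replicate 1 or 2 (against iNKT2), and 69 without iNKT17 replicate 1 and 55 without iNKT2 replicate 1 (against iNKT17). Over all genes they were 315, 398 and 425 against iNKT2 without iNKT1 replicate 1, iNKT17 replicate 1 or iNKT17 replicate 2, and 398, 1040, 467 and 419 against iNKT17 without iNKT1 replicate 1, iNKT17 replicate 1, iNKT17 replicate 2 or iNKT2 replicate 1. The cause was not tested.

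Same-numbered iNKT RNA libraries did not deviate together (correlations of -0.125, 0.061 and -0.039), so no pairing by number was seen in RNA. With 2 libraries a group this check cannot exclude that same-numbered libraries were matched. With a replicate block 28 and 30 genes at members were higher, and 158 and 228 were called over all genes; crossing the iNKT2 numbers gave 24 and 30, and 119 and 193. No paired analysis was possible for donor T cells because their columns do not carry the codes of the sample titles. Of 42 calls of named genes, 24 held in all alternatives, 18 were lost in at least 1, and none changed direction. Of the 18, 9 were lost only when a library was left out: Stat4, Il12rb2, Tjp1 and Nkg7 in both comparisons and Ifng against iNKT17. Ifng against iNKT2 was also lost with only the compared groups and with crossed numbers, and Ccr2 against iNKT17 likewise. Ccr4 against iNKT17 was lost with only the compared groups (edgeR adjusted p = 0.145). Klrc1 in both comparisons, and Klri2, Klrk1, Prf1 and Hip1 against iNKT17, were also lost with the replicate block (edgeR adjusted p = 0.0582 to 0.125), and Hip1 without iNKT1 replicate 1 or 2 (0.104 and 0.307). The search for strings in member sequences was not run. With 2 libraries a group, a miss of the threshold does not show that levels were alike.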
